A study of Mus musculus with 4 samples.

Results

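The genes Sfrp2 and Frzb encode secreted antagonists of Wnt signalling, and the accessible chromatin around both was followed from E9.5 to E10.5 in mouse forelimb buds. Members were the accessible regions whose nearest transcription start of a protein-coding gene belonged to Sfrp2 or to Frzb, measured from the centre of the region. They numbered 12 of the 42613 regions listed at E9.5 and 20 of the 46765 listed at E10.5, or 32 of 89378 in all. Sfrp2 had 8 regions at E9.5 and 14 at E10.5, and Frzb had 4 and 6. These counts rest on protein-coding starts: when genes of all types were included, Sfrp2 kept 3 regions in each list, 1 of them stage-specific in each, and Frzb kept 1 and 2. Both genes were chosen by their counts of shared and stage-specific regions in these same lists, so those counts, the scores and the positions are given as a description and no test was made on them.

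Accessible chromatin was mapped by ATAC-seq, a method in which a transposase inserts sequencing adapters into open DNA. All samples came from wild-type embryos of the outbred NMRI strain, with 2 biological replicates per stage and the forelimb bud pair of a single embryo in each replicate. The E9.5 samples, staged as E9.75 in the protocol, were dissected together with adjoining trunk, whereas the E10.5 samples are described without it. For E10.5, hindlimb buds are mentioned in the tissue label too, in contrast to the source label and the protocol. Stage and trunk tissue therefore cannot be told apart in any value below. The replicates of a stage had been merged by the authors into 1 list, so the stage comparisons carry no error from replicates, the depth is unknown, and fewer cells with an open region cannot be told apart from a less open region in every cell.

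Wnt ligands bind Frizzled receptors on the cell surface and, through the canonical branch, stabilise beta-catenin, which acts with TCF/LEF factors in the nucleus. Secreted Frizzled-related proteins carry a cysteine-rich domain like that of the receptors, bind Wnt ligands outside the cell and modulate their access to Frizzled. Sfrp2 belongs to this family, as does Frzb, also called Sfrp3, which is best known from developing cartilage and joints. In the limb bud, Wnt signals from the ectoderm keep the outer mesenchyme proliferating and hold back cartilage formation.

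Sfrp2 (ENSMUSG00000027996.7) occupies chromosome 3, 83570243 to 83578238, on the plus strand of mm9, spans 8.00 kb and has 3 annotated starts. Positions around it are given from the first start, negative upstream. The following sequences show its promoter (the 250 bp before the first start) and the central 300 bp of the 2 highest-scoring E10.5-specific regions, the highest-scoring E9.5-specific region and the highest-scoring distal shared region. Capitals mark the words CTTTGA (TCF/LEF), CAGAC (SMAD), GGCGCC (SMAD1/5) and TAATTA (HOX/LHX) on either strand, and all letters are from the mm9 genome.
Sfrp2 promoter, chr3:83569993-83570242, plus strand: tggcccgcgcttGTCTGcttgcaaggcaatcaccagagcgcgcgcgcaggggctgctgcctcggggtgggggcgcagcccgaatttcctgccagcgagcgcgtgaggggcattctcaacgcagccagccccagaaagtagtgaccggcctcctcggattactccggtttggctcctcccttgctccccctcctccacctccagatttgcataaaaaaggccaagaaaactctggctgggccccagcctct
Sfrp2 -10.7 kb, E10.5-specific, chr3:83559410-83559709, plus strand: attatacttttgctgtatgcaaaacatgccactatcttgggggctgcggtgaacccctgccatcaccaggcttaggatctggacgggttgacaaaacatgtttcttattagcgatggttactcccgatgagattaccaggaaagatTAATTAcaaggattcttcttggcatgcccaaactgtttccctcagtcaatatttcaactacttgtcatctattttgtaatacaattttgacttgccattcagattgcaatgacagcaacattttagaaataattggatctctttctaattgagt
Sfrp2 -156 kb, E10.5-specific, chr3:83413803-83414102, plus strand: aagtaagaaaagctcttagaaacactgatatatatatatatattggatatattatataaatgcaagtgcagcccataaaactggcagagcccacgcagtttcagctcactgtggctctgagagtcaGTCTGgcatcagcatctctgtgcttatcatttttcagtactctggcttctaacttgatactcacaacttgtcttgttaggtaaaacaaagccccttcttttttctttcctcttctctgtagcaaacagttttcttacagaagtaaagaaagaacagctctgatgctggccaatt
Sfrp2 -183 kb, E9.5-specific, chr3:83387104-83387403, plus strand: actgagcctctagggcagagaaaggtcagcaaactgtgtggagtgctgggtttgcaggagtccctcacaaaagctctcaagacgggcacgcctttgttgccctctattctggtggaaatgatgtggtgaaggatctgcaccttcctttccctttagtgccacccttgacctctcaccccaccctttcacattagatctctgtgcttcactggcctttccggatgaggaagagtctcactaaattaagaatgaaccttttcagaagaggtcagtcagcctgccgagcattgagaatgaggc
Sfrp2 +18.3 kb, shared, chr3:83588360-83588659, plus strand: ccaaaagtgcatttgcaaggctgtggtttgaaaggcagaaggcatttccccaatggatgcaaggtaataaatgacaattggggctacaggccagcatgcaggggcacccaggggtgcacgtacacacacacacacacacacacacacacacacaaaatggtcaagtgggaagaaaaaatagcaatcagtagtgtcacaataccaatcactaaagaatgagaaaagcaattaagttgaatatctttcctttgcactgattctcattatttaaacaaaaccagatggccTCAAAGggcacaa

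Frzb (ENSMUSG00000027004.3) lies on the minus strand of chromosome 2, 80252127 to 80287782, spans 35.7 kb and has 2 annotated starts, the second of them 8995 bp inside the gene. The sequences below follow the same choice, except that no E9.5-specific region exists to show. The promoter is written on the strand of the gene and the regions on the plus strand.
Frzb promoter, chr2:80287783-80288032, minus strand: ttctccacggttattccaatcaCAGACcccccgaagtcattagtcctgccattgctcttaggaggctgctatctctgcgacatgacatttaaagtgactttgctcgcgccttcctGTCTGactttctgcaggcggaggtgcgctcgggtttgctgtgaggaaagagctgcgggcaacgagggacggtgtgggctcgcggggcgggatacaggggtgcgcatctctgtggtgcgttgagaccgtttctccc
Frzb +50.8 kb, E10.5-specific, chr2:80236843-80237142, plus strand: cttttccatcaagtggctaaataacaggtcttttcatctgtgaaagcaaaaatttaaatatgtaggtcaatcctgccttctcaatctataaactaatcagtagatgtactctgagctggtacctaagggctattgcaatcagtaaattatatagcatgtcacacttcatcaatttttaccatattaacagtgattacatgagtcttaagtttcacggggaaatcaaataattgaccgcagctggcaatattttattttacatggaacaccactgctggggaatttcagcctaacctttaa
Frzb +3.16 kb, E10.5-specific, chr2:80284476-80284775, plus strand: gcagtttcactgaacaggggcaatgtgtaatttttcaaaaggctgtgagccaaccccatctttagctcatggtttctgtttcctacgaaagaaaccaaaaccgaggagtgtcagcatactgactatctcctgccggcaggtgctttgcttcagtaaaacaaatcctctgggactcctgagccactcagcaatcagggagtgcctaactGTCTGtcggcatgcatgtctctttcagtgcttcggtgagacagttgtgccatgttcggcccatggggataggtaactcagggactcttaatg
Frzb +37.4 kb, shared, chr2:80250235-80250534, plus strand: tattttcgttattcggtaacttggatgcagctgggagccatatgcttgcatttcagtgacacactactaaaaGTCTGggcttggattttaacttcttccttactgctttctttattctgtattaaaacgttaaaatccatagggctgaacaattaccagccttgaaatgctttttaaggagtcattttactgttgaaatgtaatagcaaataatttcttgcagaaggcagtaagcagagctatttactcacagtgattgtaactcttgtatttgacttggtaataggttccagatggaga
In the 300 bp shown, neither the strongest stage-specific region of Sfrp2 at E9.5 nor that of Frzb at E10.5 holds any of the 4 words. Over their whole width, however, CAGAC was in 3 of 3 E9.5-specific Sfrp2 regions and 2 of 2 E10.5-specific Frzb regions. That word was in 93.5% of all E9.5 regions and 90.9% of all E10.5 regions. The promoter entries of RefSeq (GRCm38.p6) were found for 2 of 2 genes and matched mm9 exactly at 1 place each. The RefSeq start of Sfrp2 lay 0 bp from the annotated first start, and that of Frzb lay 229 bp downstream of it.

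Around Sfrp2, the promoter and the regions past the gene were accessible at both stages, and all far-upstream regions were listed at only 1 stage. A further region, at 2.68 kb inside the gene, was listed at E9.5 only. Shared regions are those that touched the other stage's list over 1 bp or more, and the others are stage-specific, which means that the other list had no region there above a score of about 60. Of the Sfrp2 regions, 3 of 8 were E9.5-specific (37.5%, 95% Wilson interval 13.7 to 69.4) beside 29.9% of all E9.5 regions. At E10.5, 9 of 14 were E10.5-specific (64.3%, 38.8 to 83.7) beside 35.0% of all E10.5 regions. The intervals cover counting error only and treat regions as independent. These shares chose the gene, so nothing is read from their distance to the whole lists.

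The distal regions of Sfrp2 differed by position and, at E10.5, by score as well. Distal regions, those with a centre more than 2.5 kb from any start of a protein-coding gene, were E9.5-specific in 40.3% and E10.5-specific in 49.6% of cases over the whole lists. Upstream of Sfrp2, 2 of 2 distal E9.5 regions and 9 of 9 distal E10.5 regions were stage-specific. Downstream, 0 of 3 were stage-specific at either stage. At E10.5 the upstream regions had score percentiles of 2.11 to 55.3 and the downstream regions 56.6 to 87.0. Position and score therefore cannot be told apart there. At E9.5 the 2 upstream regions had 8.61 and 82.4, and the downstream regions 37.7 to 68.7. The upstream E10.5 regions stretched over 203 kb and covered 9514 bp, and the downstream regions stretched over 14.9 kb at both stages.

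The 9 E10.5-specific regions lay at -212, -204, -195, -185, -156, -77.0, -59.3, -55.1 and -10.7 kb. All lay outside the genes of the annotation. The score used for them is 10 times the negative log10 of the MACS p-value, and it grows with sequencing depth. The 2 highest scores were 281.08 at -10.7 kb and 274.53 at -156 kb, percentiles 55.3 and 54.5 of the E10.5 list. The region at -204 kb scored 246.10, that at -77.0 kb scored 174.22 and that at -195 kb scored 163.96. The remaining 4 were weaker, with 135.21 at -55.1 kb, 98.71 at -185 kb, 98.50 at -212 kb and 78.17 at -59.3 kb. The E10.5-specific regions of Sfrp2 were thus mostly of middle or low rank, and 3 of the 9 exceeded the median score of the list, 241.31. Their gaps to the nearest E9.5 region ranged from 1186 bp to 28124 bp. With the starts of all gene types, 1 of these 9 was still nearest Sfrp2.

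Regions of low score were stage-specific more often in the whole list, with 60.6% of the lowest score decile and 35.7% of the decile that holds the 2 strongest of these regions. Summing such shares over the scores of the 14 regions gave 5.07 E10.5-specific regions, where 9 were found. Taking the GC content into account as well, in quintiles, raised the sum to 7.14, and adding promoter class raised it to 7.31. At E9.5 the same sums were 1.62, 1.62 and 1.64, where 3 were found.

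The E9.5-specific regions of Sfrp2 were of 3 kinds. The region at -183 kb (chromosome 3, 83386513 to 83387995) scored 1134.89, percentile 82.4, and ranked 30 of the 12730 E9.5-specific regions. Only 0.400% of the 7498 E9.5 regions with at least that score were E9.5-specific. It lay among the distal upstream regions that appear in the E10.5 list, and the nearest of these was 1186 bp away. The region at -48.3 kb scored 103.83, percentile 8.61. The region at 2.68 kb, over a coding exon of Sfrp2 itself, scored 397.82, percentile 61.3, and its nearest E10.5 region was 908 bp away. It counts as promoter-proximal because its centre was 2152 bp from the last of the 3 starts.

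**Figure D1:**
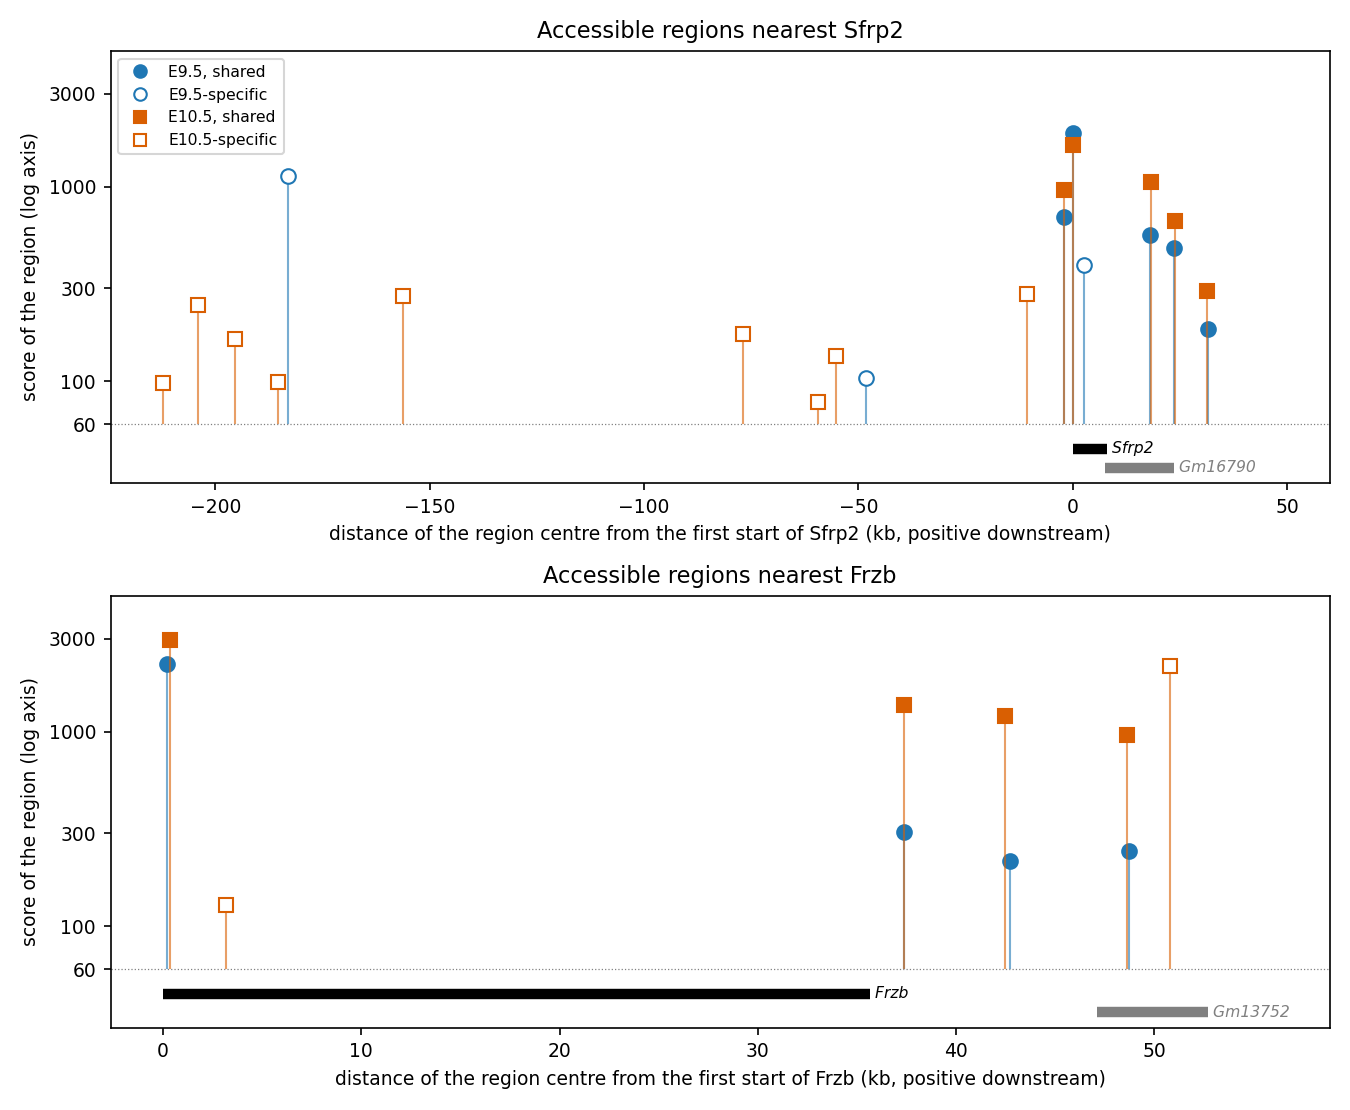
Score of every region nearest Sfrp2 (top) and Frzb (bottom) against the distance of its centre from the first start, in kb along the gene. Circles are E9.5 and squares are E10.5, filled where the region is shared and open where it is stage-specific, each on a line up from a score of 60; bars below mark the genes. Sfrp2 has only open symbols upstream of -1.99 kb, and the 4 E10.5 regions past the end of Frzb all stand above the 3 E9.5 regions there.

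The 5 shared regions of Sfrp2 ranked higher in the E10.5 list than in the E9.5 list. Because scores depend on depth, the percentile within each list is used for this comparison. Of all 29883 shared E9.5 regions, 50.3% had a higher percentile at E10.5, and of the distal ones 58.2%. Over all shared regions the median difference was 0.0873 percentage points, with quartiles of -9.71 and 9.49, and over distal shared regions it was 4.04. For Sfrp2 the median was 12.4 points. The promoter region, over the UTR and the coding exon at the start, scored 1898.66 at E9.5 and 1639.23 at E10.5, percentiles 92.1 and 93.9. The region at -1.99 kb scored 702.04 and then 964.43, percentiles 73.0 and 85.4. Both shared promoter-proximal regions were thus high in both lists.

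Downstream of Sfrp2, all 3 regions ranked higher at E10.5. The region at 18.1 kb lay in an intron of Gm16790, a long noncoding RNA gene on the opposite strand, and went from 564.44 to 1052.70, percentiles 68.7 and 87.0. The region at 23.7 kb, with its E9.5 centre 46 bp from the start of Gm16790, went from 483.67 to 663.66, percentiles 65.5 and 77.9. The region at 31.6 kb, outside genes, went from 184.61 to 292.43, percentiles 37.7 and 56.6. Among shared regions that started within 5 percentile points of the same E9.5 rank, 4.99% reached as high a percentile as the 18.1 kb region, 14.3% as high as the 23.7 kb region and 25.4% as high as the 31.6 kb region. These differences were therefore within the range of other shared regions.

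Around Frzb, the same 4 places were accessible at both stages, and at E10.5 a group past the 3′ end of the gene was wider and far higher in rank. None of the 4 E9.5 regions was E9.5-specific (0%, 95% Wilson interval 0 to 49.0) beside 29.9% of the list. At E10.5, 2 of 6 were E10.5-specific (33.3%, 9.68 to 70.0) beside 35.0%. The corresponding sums from the score deciles were 1.05 regions at E9.5 and 0.716 at E10.5, and with GC quintiles 1.12 and 1.37.

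The Frzb promoter region had one of the higher scores of either list. It scored 2238.62 at E9.5 and 2943.32 at E10.5, percentiles 94.5 and 98.8, and covered 3093 and 3630 bp. Of the shared regions with a like E9.5 rank, 11.3% reached that E10.5 percentile or more. A promoter-proximal region in both lists is common, found for 61.3% of the 22380 protein-coding genes, and both Sfrp2 and Frzb were among them. Inside an intron of Frzb, an E10.5-specific region at 3.16 kb scored 128.09, percentile 21.4, and its nearest E9.5 region was 781 bp away.

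Past the 3′ end of Frzb, 3 regions at E9.5 and 4 at E10.5 formed a group that began 1151 bp and 1143 bp beyond the gene. At E9.5 the group spanned 12.4 kb with 3141 bp covered, and its scores ran from 215.61 to 304.16, percentiles 43.7 to 54.6. At E10.5 it spanned 15.1 kb with 6533 bp covered, and its scores ran from 964.48 to 2183.25, percentiles 85.4 to 96.9. The highest value belonged to the E10.5-specific region, and the 3 shared regions ran from 85.4 to 91.4 at E10.5. How often groups of regions elsewhere differ as much was not counted, and the genes were chosen with these values in view.

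Each of the 3 shared regions of the group had a higher score and rank at E10.5. The region at 37.4 kb scored 304.16 at E9.5 and 1368.57 at E10.5, percentiles 54.6 and 91.4. The region at 42.7 kb scored 215.61 and 1196.38, percentiles 43.7 and 89.2. The region at 48.7 kb, in an intron of the noncoding gene Gm13752, scored 243.11 and 964.48, percentiles 47.8 and 85.4. The E10.5 scores were 4.50, 5.55 and 3.97 times the E9.5 scores, or log2 ratios of 2.17, 2.47 and 1.99. The log2 ratio of E10.5 to E9.5 scores had a median of -0.24 over all shared regions and 0.04 over distal shared regions. Of the shared regions with a like E9.5 rank, 1.94%, 1.78% and 3.99% reached as high a percentile at E10.5. In all 29883 shared regions, percentile differences as large as these were seen in 5.86%, 3.44% and 5.54%. No replicate values were at hand to set a spread against these differences, and the genes were chosen with them in view.

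**Figure D2:**
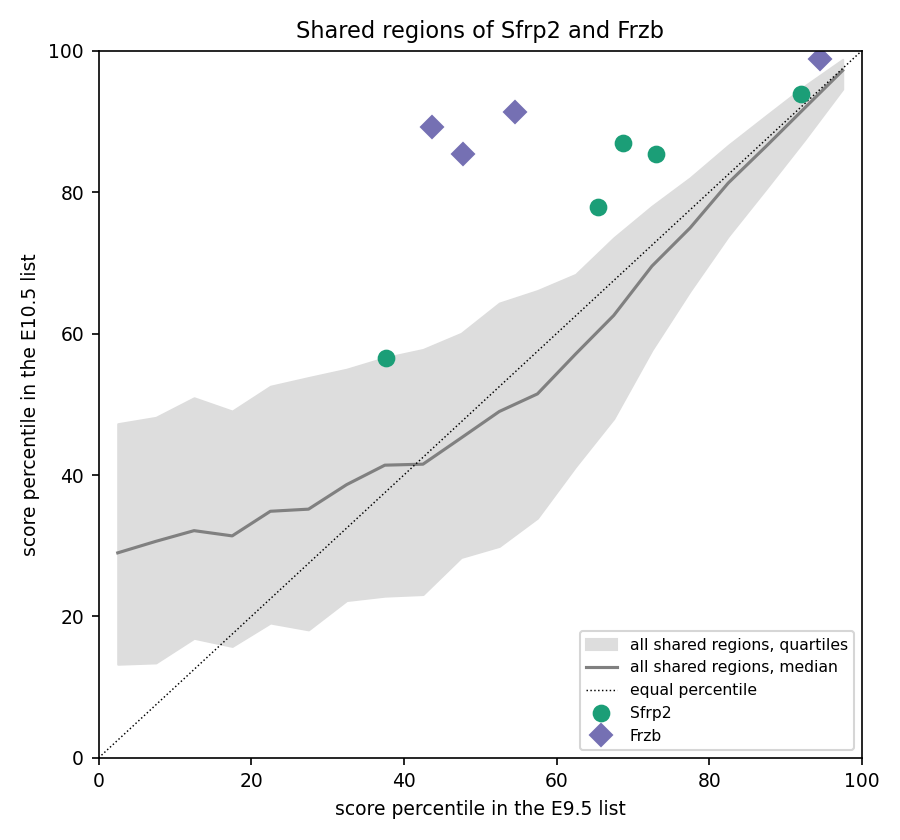
Percentile of the score in the E10.5 list against that in the E9.5 list for the shared regions of Sfrp2 (circles, 5) and Frzb (diamonds, 4). The grey line and band give the median and quartiles of all 29883 shared regions in bins of the E9.5 percentile, and the dotted line marks equal percentiles; 3 Frzb regions, those past the 3′ end, lie far above the band, at 85.4 to 91.4 on the E10.5 axis.

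The fourth E10.5 region of the group, at 50.8 kb (chromosome 2, 80235861 to 80238125), had no counterpart in the E9.5 list. It scored 2183.25, percentile 96.9, and ranked 4 among 16390 regions specific to its stage. Only 0.272% of the 1471 E10.5 regions that scored as high were absent from the E9.5 list. It lay in an intron of Gm13752, with its centre 1939 bp from the start of that gene. The nearest E9.5 region, the shared one at 48.7 kb, was 488 bp away, and the next E10.5 region was 384 bp away. A tolerance of 500 bp would thus make it a shared region and leave Frzb with 1 E10.5-specific region. It lies between Frzb and the neighbouring gene Dnajc10, and which gene it acts on was not tested.

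The shared regions of Frzb were wider at E10.5, and those of Sfrp2 were mixed. In all, 34.6% of shared regions were wider at E10.5. The 4 Frzb regions gained 347 bp at 48.7 kb, 685 bp at 42.7 kb, 95 bp at 37.4 kb and 537 bp at the promoter. For Sfrp2, 3 of 5 were wider, by 201 bp at -1.99 kb, 314 bp at 18.1 kb and 581 bp at 31.6 kb. The Sfrp2 promoter region was narrower, at 2123 bp instead of 2484 bp. In all, the regions around Sfrp2 covered 11416 bp in the earlier list and 18120 bp in the later, and those around Frzb covered 6234 bp and 11406 bp.

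Over the whole E10.5 list, GC content differed between shared and stage-specific distal regions. The 9 E10.5-specific regions of Sfrp2, all distal, had a median of 44.7% GC in the central 300 bp. The 5 shared regions of the E10.5 list, 2 of which are promoter-proximal, had 59.0%. The 3 distal ones among them had 43.0, 59.3 and 39.3%, on both sides of 44.7%. In the whole E10.5 list, distal E10.5-specific regions had a median of 44.0% (quartiles 40.3 and 48.0) and distal shared regions 50.7% (46.3 and 55.3). The E10.5-specific regions of Sfrp2 were therefore like other such regions in this respect. The 3 distal shared regions of Frzb were poor in GC too, at 38.3, 40.3 and 46.0% in the E9.5 list and 36.3, 41.3 and 44.0% in the E10.5 list. For Sfrp2 the value of a shared region moved with the centre of the window, from 47.7 to 43.0% at 18.1 kb and from 54.0 to 39.3% at 31.6 kb. The region at 50.8 kb had 35.3% GC and the region at 3.16 kb had 49.0%.

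**Figure D3:**
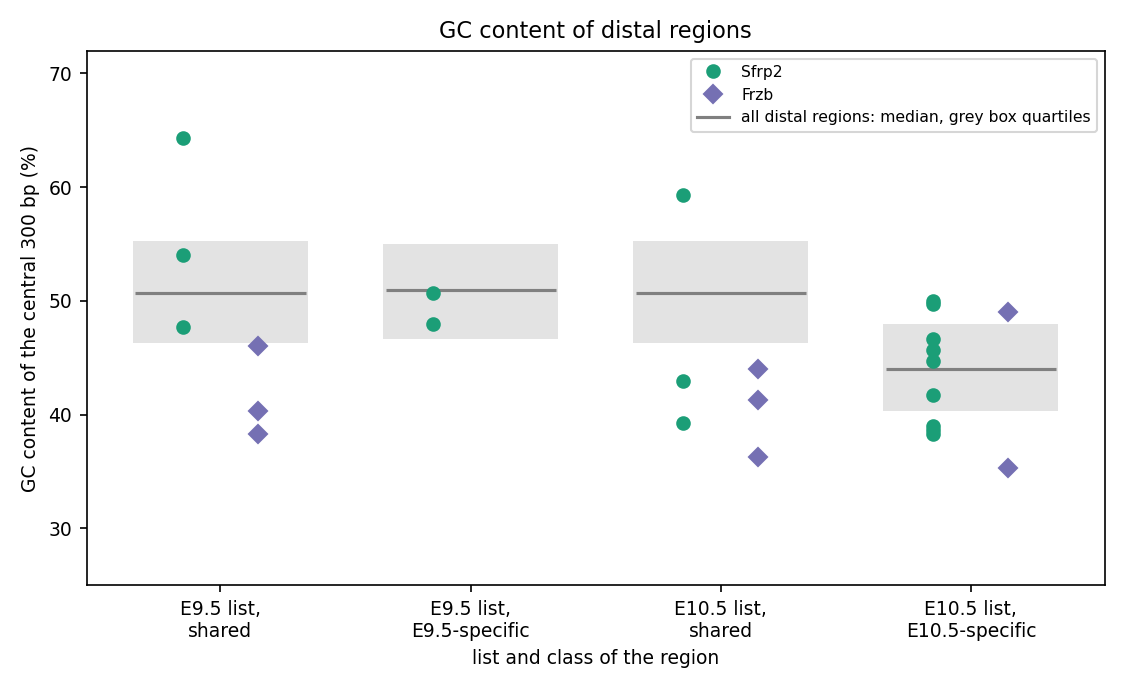
GC content of the central 300 bp of distal Sfrp2 (circles) and Frzb (diamonds) regions, by list and class. Grey boxes give the quartiles and grey lines the median of all distal regions of that class; the E10.5-specific class has the lowest median, 44.0%, and all 3 shared Frzb regions lie below the lower quartile of 46.3% in both lists.

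Short words of transcription factor families were looked for in the central 300 bp on both strands. The word CTTTGA of TCF/LEF, the nuclear partners of beta-catenin, was in none of the 11 E10.5-specific windows of the 2 genes, and 26.0% of all distal E10.5-specific windows hold it. Over the whole width of the regions, however, it occurred in 3 of the 9 Sfrp2 and in 2 of the 2 Frzb E10.5-specific regions, with 6 copies in the Frzb regions, and 55.9% of all E10.5 regions hold it over their width. Per kb, all E10.5 regions of Frzb held 0.877 such words and those of Sfrp2 held 0.386, beside 0.748 in the whole list and 0.951 in its distal E10.5-specific regions. A match is a description of letters and not a binding site, and its absence from a window says nothing about the factor.

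The word CAGAC, bound by SMAD proteins of the BMP and TGF-beta pathways, was in 5 of 9 Sfrp2 and 1 of 2 Frzb E10.5-specific windows, beside 53.5% of all distal E10.5-specific windows. The word TAATTA, recognised by HOX and LIM homeodomain proteins, was in 2 of 9 Sfrp2 windows, at -55.1 and -10.7 kb, and in 0 of 2 Frzb windows, beside 16.1%. ACAAAG, a SOX word, was in 4 of 9 Sfrp2 windows beside 26.5%, and another SOX word, ACAATG, in 0 of 9 beside 15.4%. TGACAG, a MEIS/PKNOX word, was in 3 of 9 beside 24.3%. The RUNX word TGTGGT was in 2 of 9 beside 22.3%, and the GATA word AGATAA in 0 of 9 beside 13.1%. The window of the shared region at 18.1 kb held CTTTGA only when centred on the E10.5 region, at 18.3 kb, and that at 23.7 kb only when centred on the E9.5 region.

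Assignment to the nearest start gave each gene a territory of its own. The stretch of chromosome 3 nearer to a start of Sfrp2 than to any other ran from 83251705 to 83608232, 357 kb, between Gm10710 and Tlr2, a Toll-like receptor gene. For Frzb it ran from 80233299 to 80326809 on chromosome 2, 93.5 kb, between Dnajc10 and Nckap1. Just outside, the first E10.5 regions were an E10.5-specific region of score 97.96 that lay 41.8 kb from Sfrp2 and 33.1 kb from Tlr2, and a shared region of score 342.92 on the far side, 479 kb from Sfrp2. Distances of these outside regions are to the nearest start of the gene named. For Frzb, the first E10.5 region outside was E10.5-specific with a score of 110.92. It lay 54.0 kb from the second start of Frzb and 37.0 kb from a start of Dnajc10, and was closer to the 3′ end of Frzb than to that second start. On the other side the first E10.5 region was the promoter region of Nckap1, with a score of 2249.07. Of the flanking genes, Tlr2 had 1 region in the earlier list and 3 in the later, of which 2 were E10.5-specific. Dnajc10 had 2 and 4, of which 2 were E10.5-specific, and Gm10710 had 8 and 8, with 4 stage-specific at each stage.

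The counts of Sfrp2 and Frzb had parallels elsewhere. Among the 16495 protein-coding genes with a region in either list, 316 had at least as many E10.5-specific regions as Sfrp2 and 3131 at least as many as Frzb. By the Euclidean distance between the square roots of the 4 counts (shared and stage-specific at each stage), Rnd3 had the same counts as Sfrp2, with a distance of 0. Next came Erbb4 at 0.172, 5930403N24Rik and Trpm3 at 0.268, and Tgfb2, which encodes a TGF-beta ligand, at 0.292. For Frzb, 35 genes had the same counts, so no gene was nearest to it. The first 5 of these by symbol were 2010305A19Rik, 4930431F12Rik, 6230409E13Rik, AF529169 and Abat.

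The 14 secreted Wnt antagonists together had 50 regions at E9.5, 14 of them E9.5-specific (28.0%). At E10.5 they had 71, 36 of them E10.5-specific (50.7%). The shares were 29.9% and 35.0% over all regions, and 40.3% and 49.6% over distal regions. The antagonist shares were not split by distance to a start, so no excess is read from them. Of the 36, Sfrp2 had 9 and Dkk2 had 10. More E10.5-specific than E9.5-specific regions were counted for 8 genes, fewer for 2, and equal numbers for 4. Of all genes with a region, 26.8% had more E10.5-specific and 25.5% more E9.5-specific regions. The list was drawn up with earlier results of these data known and includes Sfrp2 and Frzb, so the counts are a description. A promoter-proximal region was in both lists for 12 of the 14, the exceptions being Dkk4 and Cer1.

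Within the Frizzled-related family, Sfrp1 had 8 regions at E9.5, 4 of them stage-specific, and 9 at E10.5, 5 of them stage-specific. Sfrp5 had 2 and 1, with 1 E9.5-specific, and Sfrp4 had 1 shared region at each stage. Of the Dickkopf genes, some of whose products block the LRP5/6 co-receptors, Dkk2 had 9 regions at E9.5, 1 of them stage-specific. At E10.5 it had 17, 10 of them stage-specific. Dkk1 had 3 shared regions at E9.5 and 6 at E10.5 with 3 E10.5-specific, Dkk3 had 4 with 1 E9.5-specific and 5 with 2 E10.5-specific, and Dkk4 had no region. Dkk2 was thus the 1 antagonist with more E10.5-specific regions than Sfrp2.

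The other antagonists were mixed. Wif1, which encodes a Wnt-binding inhibitor, had 5 regions at each stage with 2 stage-specific. Sost, the gene of the LRP5/6 inhibitor sclerostin, had 3 regions at E9.5 with 2 E9.5-specific and 1 at E10.5, and its relative Sostdc1 had 2 and 3 with 1 E10.5-specific. Cer1, the gene of a BMP and Nodal inhibitor that is counted here with the Wnt antagonists, had 0 regions at E9.5 and 2 at E10.5, both E10.5-specific. Notum, which encodes an enzyme that removes the lipid of Wnt proteins, had 1 shared region at each stage.

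**Figure D4:**
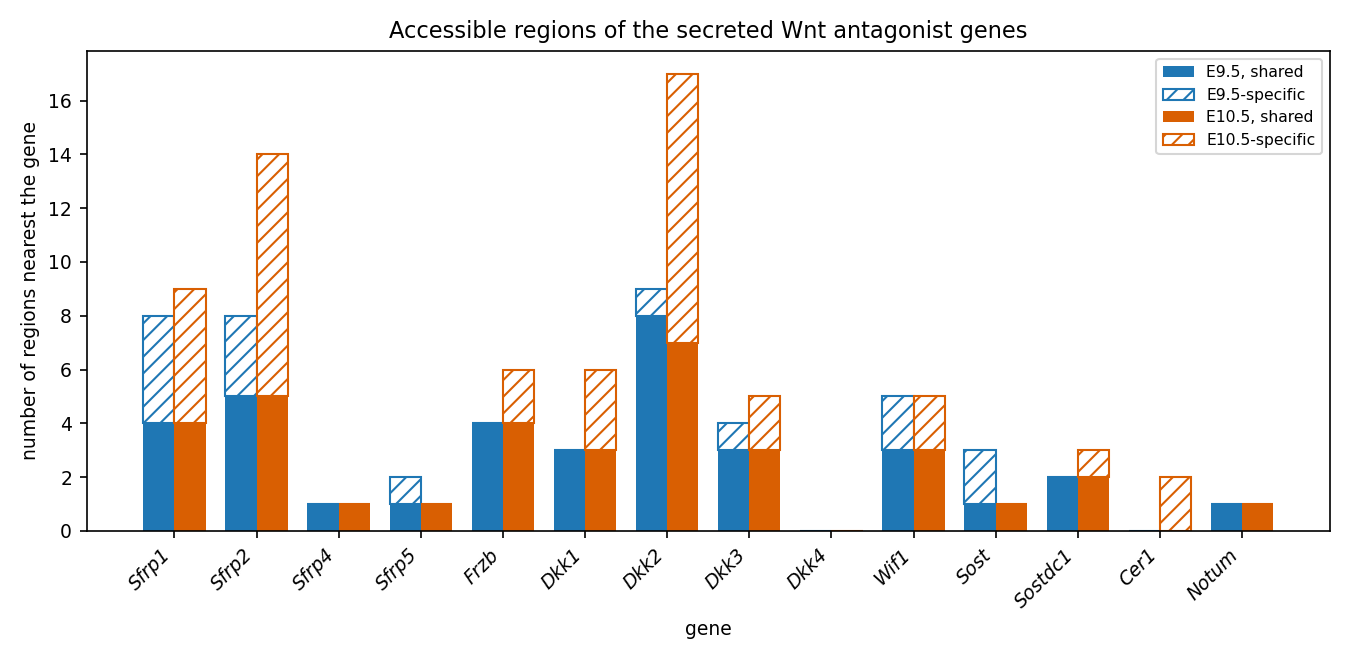
Number of regions nearest each of the 14 secreted Wnt antagonist genes, E9.5 left and E10.5 right for each gene, with shared regions filled and stage-specific regions hatched on top. Sfrp2 (9 of 14) and Dkk2 (10 of 17) have the tallest hatched bars at E10.5, and Dkk4 has no region.

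In the rest of the pathway, the total shares of stage-specific regions were alike in both lists, but its parts differed. The 59 genes of ligands, receptors, R-spondins and effectors had 274 regions at E9.5, 100 of them E9.5-specific (36.5%). At E10.5 they had 271, 95 of them E10.5-specific (35.1%). Over all regions the shares were 29.9% and 35.0%, and over distal regions 40.3% and 49.6%. More E10.5-specific regions were counted for 15 genes, more E9.5-specific regions for 28, and equal numbers for 16. The 19 Wnt ligand genes had 35 of 83 regions E9.5-specific (42.2%) and 15 of 65 E10.5-specific (23.1%). The 11 genes of R-spondins, their receptors and Wnt secretion had 30 of 58 E10.5-specific (51.7%), beside 15 of 42 at E9.5. The most E10.5-specific regions were nearest the receptor gene Fzd1 and the effector gene Tcf7l2, with 10 each, followed by the R-spondin genes Rspo2 and Rspo3, with 9 each as for Sfrp2.

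Marker genes of forelimb and hindlimb buds and of somites had a promoter-proximal region at both stages, with Pitx1 as the exception. Such a region in both lists was found for 61.3% of all protein-coding genes. Both lists held a promoter-proximal region for 6 of 6 genes of limb bud mesenchyme (Prrx1, Msx1, Lhx2, Lhx9, Hand2, Grem1) and for the forelimb gene Tbx5. Of the regions nearest the 6 mesenchyme genes, 5 of 44 were E9.5-specific (11.4%) and 20 of 60 E10.5-specific (33.3%), beside 29.9% and 35.0% of the whole lists. Most of these 20 were nearest Hand2 (11) and Prrx1 (6), and Lhx9 had 3. Msx1 and Lhx2 went the other way, with 1 and 2 E9.5-specific regions and 0 E10.5-specific, and Grem1 had 0 of either kind. Both lists also held a promoter-proximal region for 6 of 6 somite genes (Pax1, Pax3, Meox1, Meox2, Myf5, Tcf15). Of the regions nearest these, 19 of 47 were E9.5-specific (40.4%) and 21 of 50 E10.5-specific (42.0%). Of the 3 hindlimb genes, Tbx4 and Isl1 had a promoter-proximal region in both lists, and Pitx1 had one at E9.5 only. An open promoter does not show that a gene is expressed, and the part of trunk tissue in the Sfrp2 and Frzb values was not tested.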

How the data were processed

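ATAC-seq libraries of 4 samples, 2 per stage, were processed by the authors. Reads were aligned to mm9 with Bowtie 1.1.0, regions were called with MACS 1.4 without a control, and the replicates of each stage were combined with MSPC at a stringent p of 1e-10 and a weak p of 1e-06. Per region, the deposited score is −log10 of the p-value from MACS, multiplied by 10, for whichever replicate gave the smallest p, with a lowest value of 60.52 at E9.5 and 60.44 at E10.5. No counts were used, so the depth and the precision it gives are unknown.

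Starting from these 2 lists, regions were assigned with Python 3.11.15, pandas 2.3.3, numpy 2.4.6 and pyfaidx 0.9.0.4 to the nearest of 70064 starts of 22380 protein-coding genes (GENCODE vM1, NCBIM37, which has the chromosome lengths of mm9). Dchs2, which RefSeq places between Gm10710 and Sfrp2, is not a gene of that annotation. Peak summits were not used, so GC content and words were taken from the 300 bp around the region centre. Word searches covered 20 motifs, of which NFI and CTCF are not spelled out. Of shared regions, the best-scoring partner was taken. The sums of expected stage-specific regions used the list-wide share in the same score decile.

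The genes, gene lists, words and naming rules were chosen with earlier results of these data known. Named were every region and antagonist, the 5 genes with the most similar counts, the 3 pathway genes with the most E10.5-specific regions (4 because of a tie), and marker genes of limb buds and somites. The assignment and overlap functions were tested on simulated data. Alternatives were another overlap rule, score filter, gene set, assignment, promoter distance and GC window.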

Additional observations from a re-analysis of the deposited data

How the results depend on the processing

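Over 70 alternatives, 20 values were counted as moved and 50 as not moved, under a wide tolerance. The 50 include Sfrp2 regions at E10.5, which were 11 within 100 kb and 21 between the flanking gene bodies, instead of 14. They also include 9 Frzb regions at E10.5 within 100 kb instead of 6. The expected sum of Frzb at E10.5, 0.716 by score and 1.37 with GC, was counted as not moved too. Requiring a reciprocal overlap of 50% or a centre that falls within a region of the other stage changed none of the stage-specific counts. Counting a gap of at most 500 bp as shared left Frzb with 1 E10.5-specific region. With only the upper 50% of each list by score, Sfrp2 kept 8 regions at E10.5, 4 of them E10.5-specific, and Frzb kept 2 at E9.5. Set against the whole other list, the higher-scoring 50% held 3 E10.5-specific regions of Sfrp2 and 1 of Frzb, so most of the Sfrp2 count came from regions of lower score. Using the starts of all gene types gave Sfrp2 3 regions at each stage, 1 of them stage-specific. Frzb then had 1 at E9.5 and 2 at E10.5, 1 of them E10.5-specific. The rest lay nearer to a start of a gene that is not protein-coding. For the upstream regions of Sfrp2 this cannot be Gm16790, which starts downstream of Sfrp2. All regions within 100 kb included 5 E10.5-specific regions for Sfrp2 and 4 for Frzb. Between the flanking gene bodies there were 13 Sfrp2 regions at E9.5, 6 of them E9.5-specific, 14 E10.5-specific regions of Sfrp2 and 4 of Frzb. A promoter distance of 1 kb left 2 of the 5 promoter-proximal Sfrp2 regions. The sums with promoter class and the percentile among shared regions were chosen after seeing the data, and by the latter 5 of 5 Sfrp2 and 4 of 4 Frzb regions ranked higher at E10.5. No paired analysis was possible because the replicates of a stage are merged into 1 list, and leaving out a replicate was not run for the same reason. The score depends on depth, which is unknown, so a region listed at 1 stage may lie just below the threshold at the other.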
